A study of Mus musculus with 57 samples.

Results

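The Pou5f1 locus was followed in 30 peak lists from CUT&RUN, an assay in which an antibody brings a nuclease to a chromatin protein and the released DNA fragments are sequenced. A peak belonged to the locus if its summit lay within 50 kb of the annotated Pou5f1 transcription start on mouse chromosome 17 (build mm10), whatever its height. Of 775358 peaks in the 30 lists, 196 met this rule, and 26 lists held at least 1 of them. Summits within 250 bp of the best summit were joined into a site, which gave 39 sites at the locus among 240276 over the genome, 20 upstream and 19 downstream of the start. All cells came from 1 mouse embryonic stem (ES) cell line with a single copy of a transgene in which a TET-responsive element, switched on by doxycycline, drives GATA6. At 0 h the cells were in maintenance medium with LIF and inhibitors, and at 2, 4 and 8 h they had received doxycycline in serum medium with LIF. Doxycycline was withdrawn after 12 h, so the 24 and 48 h cells had a period without it. The time points were 0, 2, 4, 8 and 48 h for GATA6 and the first 4 of these for each of NANOG and SOX2, while GATA4 and SOX17 were mapped once, at 24 h, which makes 15 groups of 2 lists. Medium and induction changed together after 0 h, so their parts in a change from 0 h cannot be told apart. Each library was made from a population of 100000 cells, in which fewer cells with a bound site and less binding per cell cannot be told apart either. The study describes its replicates as independent, but the labels do not say whether they came from separate cultures, so p-values measure the spread between these lists, which may be technical. The 6 GATA6 lists of 4, 8 and 48 h carry peak names of other time points than the ones they are recorded under, and times here follow the names. By the record, the lists given here as 48 h would be 4 h, those given as 4 h would be 8 h, and those given as 8 h would be 48 h.

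Pou5f1 encodes OCT4, a POU-domain transcription factor that keeps ES cells pluripotent and binds many of its targets together with SOX2. Its gene is known for a pair of upstream control elements, a distal enhancer that is used in naive ES cells and the inner cell mass, and a proximal enhancer that is used mainly in the later epiblast. NANOG and SOX2 are factors of the pluripotent state, whereas GATA6, GATA4 and SOX17 belong to the primitive endoderm (PrE), the extraembryonic lineage that arises beside the epiblast. SOX2 and SOX17 recognise similar short sequences through their HMG boxes, and GATA factors recognise sequences built around the letters GATA. Pou5f1 itself (ENSMUSG00000024406.16) lies on the plus strand at chr17:35506018-35510772 with 5 exons. The other genes of the window are H2-Q10 upstream and Tcf19, Cchcr1, Psors1c2 and Cdsn downstream, with Gm19553 antisense to the Pou5f1 3′ part.

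Shown first are 5 of the upstream sites, with the reference sequence (GRCm38.p6, which is the same build, RefSeq) of 201 bases around the centre of each, on the plus strand and 5′ to 3′. Capitals mark matches, on either strand, to GATA letters (AGATAA, its variant with a final G, AGATAG, and the same pair with an initial T, TGATAA besides TGATAG), to SOX letters (ACAAT and the longer ACAAAG), and to ATGCA, which begins the octamer ATGCAAAT. The site 2.0 kb upstream of the start (centre at -1981 bp, chr17:35503937-35504137) lies in the distal enhancer window, set at 2500 to 1500 bp upstream, and all 5 sites are outside annotated genes.
Distal enhancer site, 2.0 kb upstream: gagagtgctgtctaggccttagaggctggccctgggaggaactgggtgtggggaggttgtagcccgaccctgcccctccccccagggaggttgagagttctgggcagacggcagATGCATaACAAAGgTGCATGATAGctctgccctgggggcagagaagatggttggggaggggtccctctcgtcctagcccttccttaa
Site 3.2 kb upstream, chr17:35502734-35502934: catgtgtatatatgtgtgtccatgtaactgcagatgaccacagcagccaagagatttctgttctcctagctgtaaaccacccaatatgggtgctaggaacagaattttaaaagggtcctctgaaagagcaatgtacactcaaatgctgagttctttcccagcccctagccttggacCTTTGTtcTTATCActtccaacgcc
Site 20.1 kb upstream, chr17:35485849-35486049: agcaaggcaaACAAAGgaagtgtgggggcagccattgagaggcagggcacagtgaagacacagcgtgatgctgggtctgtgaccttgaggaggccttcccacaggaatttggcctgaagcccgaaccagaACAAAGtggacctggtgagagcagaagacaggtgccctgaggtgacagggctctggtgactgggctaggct
Site 4.5 kb upstream, chr17:35501388-35501588: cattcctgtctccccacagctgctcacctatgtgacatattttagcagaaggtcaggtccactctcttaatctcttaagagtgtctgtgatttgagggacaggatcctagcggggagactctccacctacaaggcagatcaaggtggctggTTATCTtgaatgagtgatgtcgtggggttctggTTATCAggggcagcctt
Proximal enhancer site, 1.2 kb upstream, chr17:35504711-35504911: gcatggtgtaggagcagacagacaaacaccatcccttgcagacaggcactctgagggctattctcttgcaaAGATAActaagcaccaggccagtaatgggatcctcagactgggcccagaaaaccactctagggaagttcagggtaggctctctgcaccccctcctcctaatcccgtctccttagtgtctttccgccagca
In the distal enhancer sequence, counted from its first base, ACAAAG on the plus strand spanned bases 122 to 127, between an ATGCA match at bases 115 to 119 and a minus-strand ATGCA match at bases 129 to 133, and TGATAG followed at bases 133 to 138, sharing 1 base with the last match. The site thus held all 3 kinds of letters, whereas the site at 4.5 kb held 2 GATA matches and no SOX match, and the site at 20.1 kb held 2 SOX matches and no GATA match. At 3.2 kb a SOX match (bases 177 to 182) and a GATA match (bases 185 to 190), both on the minus strand, stood at the edge of the window. Over the 39 sites, 13 held GATA letters within 100 bp of the centre and 18 held SOX letters, beside 40.1% and 47.5% of 240263 sites over the genome with a readable sequence. ATGCA was found in 13 of the 39 sites (32.4% over the genome), the whole octamer in 1 (2.17%), and the NANOG letters CATTA, or alternatively TAATGG, in 5 (26.3%). Such matches are short and common, and describe the letters only.

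**Figure D1:**
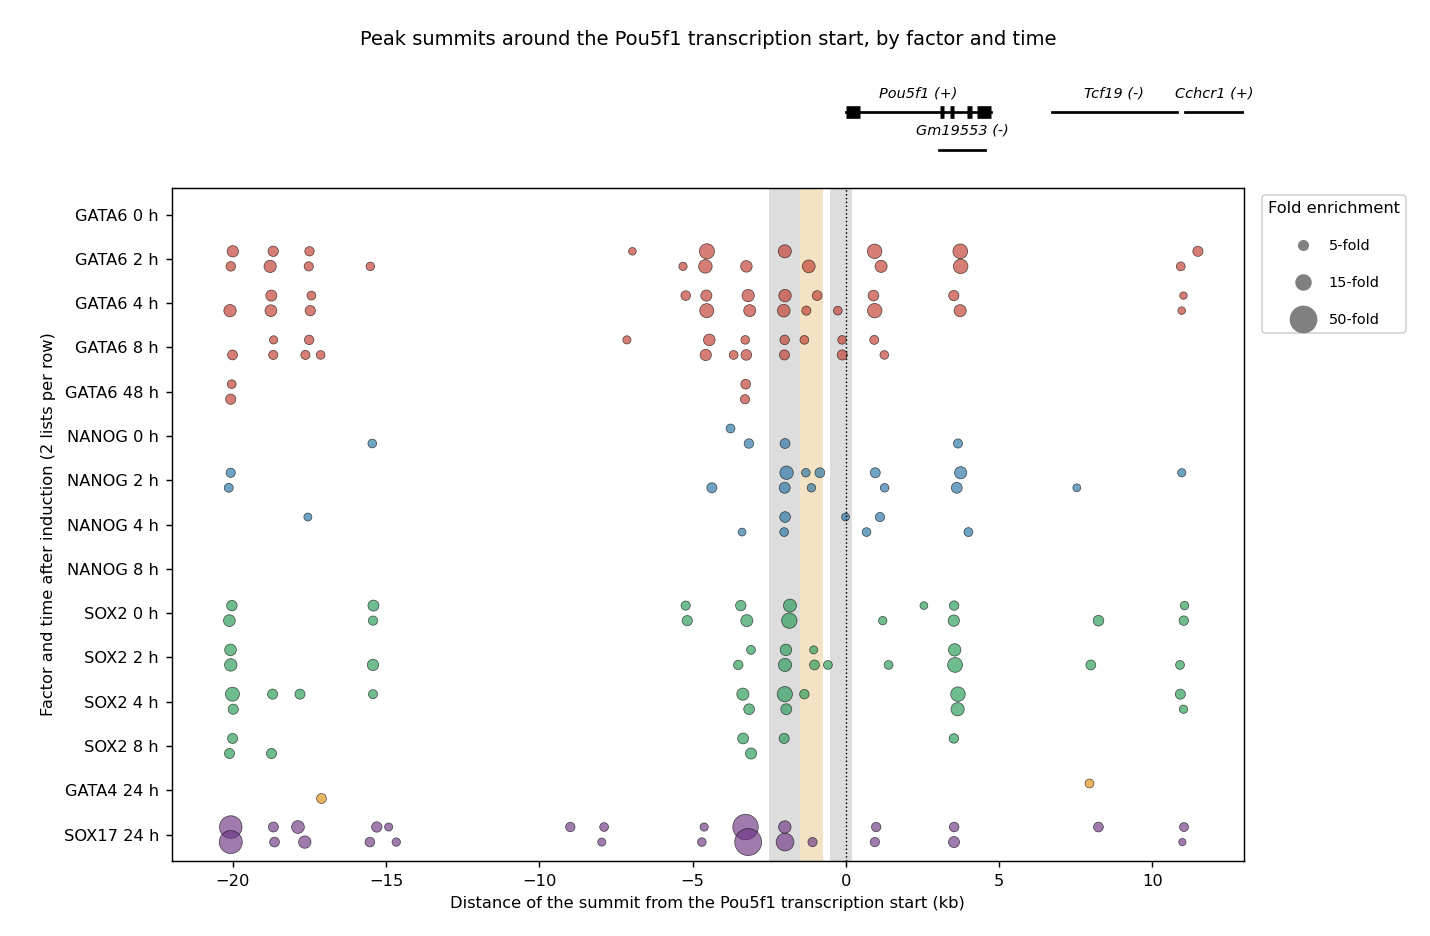
Summits of the 30 lists plotted by distance from the Pou5f1 transcription start (kb, x axis) for each factor and time (y axis, replicate 1 above replicate 2 in each row), with area growing with the fold enrichment. Sites 15.0 kb or more downstream lie beyond the drawn range. Grey bands mark the distal enhancer and promoter windows, the tan band the proximal enhancer window, and gene models with Pou5f1 exons are drawn above. The largest circles are SOX17 at 3.2 and 20.1 kb upstream, and no summit is listed for GATA6 at 0 h or NANOG at 8 h.

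The lists differed widely in length and depth, and values were therefore read with these in mind. A list held between 86 peaks (GATA6 0 h, replicate 1) and 79358 peaks (GATA6 2 h, replicate 1). Background coverage stands for depth. It is the commonest local background (fragments per base that the caller expected at a peak) among the weaker peaks of a list, as solved from its fold and p-value columns. The pair of GATA6 0 h lists had 0.29 and 0.31, other GATA6 lists 0.93 to 1.34, NANOG lists 0.86 to 1.31, SOX2 lists 0.29 to 0.69, and the SOX17 pair 1.23 and 1.55. At these coverages a summit needed 4 to 8 fragments to be listed. The pileup (the number of fragments that cover a summit) came out as a whole number for 194 of the 196 peaks at the locus, between 4 and 160, whereas the GATA4 pileups had been scaled and could not be recovered. Fold enrichment is the authors' ratio of the pileup to the local background at a summit, with 1 added to each (a pseudocount). The same ratio of pileup to background therefore gives a lower fold in a list with lower background coverage. A site without a summit was below the caller's threshold in that list (q-value of 0.05) or was part of a peak whose summit lay elsewhere.

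GATA6 had no listed peak at the locus before induction and the most at 2 h. The GATA6 lists held 0 and 0 peaks at 0 h, 12 and 13 at 2 h, 10 and 12 at 4 h, 9 and 10 at 8 h, and 2 and 2 at 48 h, in the order of the replicates. The 0 h and 48 h lists did not overlap with those of 2, 4 and 8 h, and the number differed between the 5 time points (two-sided exact permutation test over 113400 arrangements of the 10 lists, p = 0.00423, adjusted p = 0.0127 over the 3 factors). Over the genome, however, the 0 h lists held 86 and 882 peaks and the 48 h lists 5933 and 9767, against 28676 to 79358 at the other times. The number is not adjusted for this length. With only the 10000 best peaks of each list, the adjusted p was 0.0857. NANOG lists held 1 and 6 peaks at 0 h, 8 and 8 at 2 h, 4 and 4 at 4 h, and 0 and 0 at 8 h, and the 0 h pair spanned most of this range. The number of NANOG peaks did not pass the test over the 4 time points (exact permutation test, p = 0.0667, adjusted p = 0.1), but passed it within 25 kb or 100 kb of the start (adjusted p = 0.0429 in both). Without replicate 1 or without replicate 2 of 0 h, the exact permutation test gave an adjusted p of 0.0143 each time. SOX2 lists held 10 and 11 peaks at 0 h, 6 and 13 at 2 h, 11 and 6 at 4 h, and 4 and 3 at 8 h. The 8 h SOX2 lists lay below all other SOX2 lists, but were also the shortest, with 14055 and 11540 peaks against 24073 to 52574 over the genome. The SOX2 replicates at 2 and 4 h were farther apart than the means of 0, 2 and 4 h, and the number did not pass the test (exact permutation test, p = 0.238, adjusted p = 0.238). SOX17 at 24 h gave 15 and 14 peaks, the most of any group, in lists of 27328 and 41979 peaks. GATA4 gave 1 and 1, at places that its 2 lists did not share.

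These numbers moved with the length of the lists, so the share of each list that lay at the locus was compared as well. Per 10000 peaks of its list, GATA6 gave 1.79 ± 0.397 (SD, n = 2) peaks at the locus at 2 h and 2.15 ± 0.0868 at 4 h, then 3.22 ± 0.12 at 8 h and, in the 48 h lists, 2.71 ± 0.936. The GATA6 0 h lists held too few peaks to give a share and were left out. This share did not pass the test over the 4 time points (exact permutation test, p = 0.295, adjusted p = 0.295). Without replicate 2 of GATA6 48 h it did, with an adjusted p of 0.0429 by the same exact permutation test. NANOG gave 2.32 ± 1.96 before induction, 2.26 ± 1.03 at 2 h, 2.72 ± 0.05 at 4 h and no peak at 8 h (0), where the lists held 5510 and 2255 peaks in all (exact permutation test, p = 0.2, adjusted p = 0.295). For SOX2 it fell from 3.63 ± 0.669 at 0 h to 2.48 ± 0.0139 at 2 h and 2.43 ± 0.00794 at 4 h, and was 2.72 ± 0.174 at 8 h. The exact permutation test gave p = 0.00952, the smallest that the 2520 arrangements allow, and an adjusted p of 0.0286. That call was lost at a −log10 q of at least 5, where the difference of 8 h from 0 h had the other sign (exact permutation test, adjusted p = 0.552), with the 10000 best peaks (0.571), and within 25 kb (0.133) or 100 kb (0.157). With the replicate block the same test gave 0.125, but its fewer arrangements cannot give a call to 1 factor alone, so it cannot show whether the call holds. Without any 1 of the SOX2 lists of 2, 4 or 8 h the adjusted p was 0.295.

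**Figure D2:**
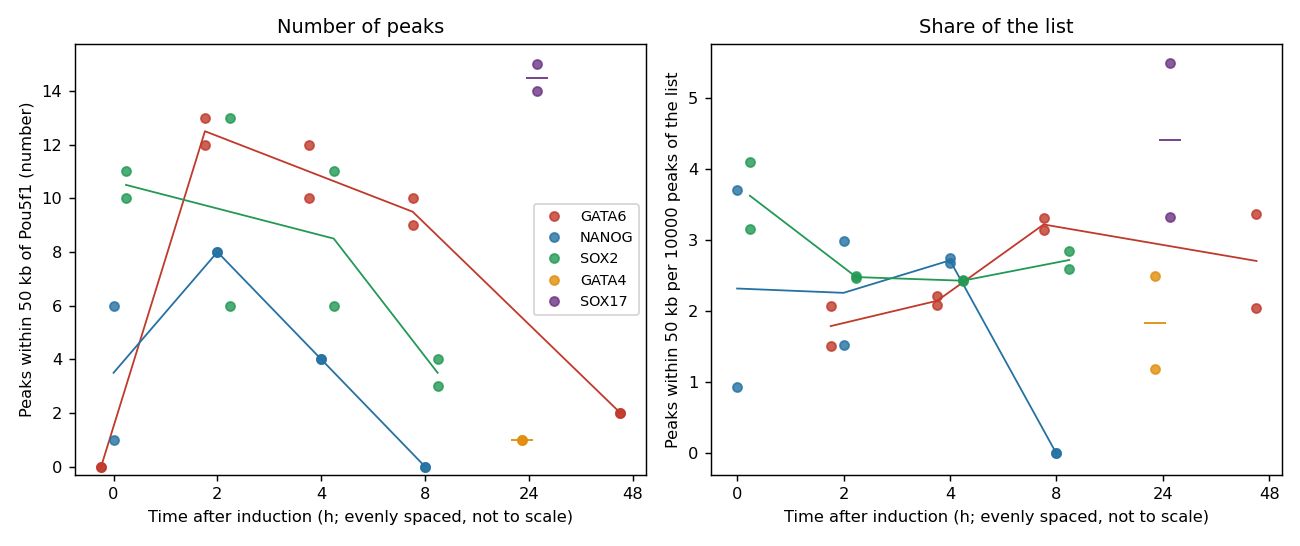
Number of peaks within 50 kb of the Pou5f1 start (left, y axis) and the same per 10000 peaks of the list (right, y axis) against time after induction (h, evenly spaced and not to scale), each point a list and each line or bar the mean of the 2 lists of a group. GATA6 numbers rise from 0 to 12 and 13 at 2 h and fall to 2 and 2 at 48 h, whereas the mean GATA6 share is 1.79 at 2 h and 2.71 at 48 h, where the lists of these times overlap.

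The distal enhancer was the site held by most lists, with a summit in 19 of 30 and in both lists of 8 groups. SOX2 summits there had a fold of 11.4 and 16.6 at 0 h, 8.6 and 11.9 at 2 h, 16.4 and 7.68 at 4 h, and 6.31 in replicate 1 only at 8 h. The pileups behind them were 19 and 33, 16 and 29, 34 and 13, and 9 fragments, so that the 8 h value rests on 9 fragments (exact 95% Poisson interval 4.12 to 17.1, for counting error only). NANOG had no summit in replicate 1 and a fold of 6.05 in replicate 2 at 0 h, 12.3 and 7.8 at 2 h, 7.32 and 4.41 at 4 h, and none at 8 h. The NANOG pileups were 22 at 0 h, 43 and 27 at 2 h, and 21 and 12 at 4 h, highest in the 2 h lists. GATA6 reached 11.6 in replicate 1 at 2 h, 10.4 and 10.8 at 4 h, 5.43 and 6.38 at 8 h, and had no summit there at 0 or 48 h. In GATA6 2 h replicate 2, a peak of 2430 bp that summits in the proximal enhancer also covers the distal enhancer and the centre of the promoter site. The 2 h peak of replicate 1 is 3081 bp wide and covers both enhancers and the promoter. SOX17 at 24 h had folds of 10.5 and 22.7 at the same site, with pileups of 36 and 101. For the 4 factors that held the site in both lists of a group, its summits ranged from -2023 to -1821 bp, the SOX2 0 h summits (-1821 and -1841 bp) lying nearest to the gene. A site takes only summits within 250 bp of its best one, so this nearness is limited in advance and says nothing of shared binding.

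The proximal enhancer window (1500 to 750 bp upstream) held weaker and less regular peaks than the distal enhancer. Its site at 1.2 kb had a summit in 9 lists, in both lists of only 2 groups: NANOG at 2 h, with folds of 4.11 and 4.03, and SOX2 at 2 h, with 3.47 and 5.94. NANOG had no summit at this site at 0, 4 or 8 h, and SOX2 none at 0 or 8 h, although the broad SOX2 0 h peaks that summit in the distal enhancer (2040 and 1725 bp wide) cover it. The highest proximal value was that of GATA6 2 h replicate 2, 11.1 with a pileup of 35. The other summits at this site were 4.96 in GATA6 4 h replicate 2, 4.44 in GATA6 8 h replicate 1, 5.4 in SOX2 4 h replicate 1 and 5.02 in SOX17 replicate 2. A second proximal site, 0.9 kb upstream, had a summit in 2 lists, GATA6 4 h replicate 1 (5.94) and NANOG 2 h replicate 1 (5.89). In the promoter window (500 bp upstream to 200 bp downstream) 4 lists had a summit. GATA6 at 8 h was the only group with a summit there in both lists (4.24 and 6.4, pileups 11 and 16). The others were 4.42 in GATA6 4 h replicate 2 and 3.33 in NANOG 4 h replicate 1, whose summit lay 7 bp from the start. Both GATA6 2 h lists cover the centre of the promoter site with the broad peaks that summit in the enhancers. SOX2 and SOX17 had no summit in the promoter window in any list.

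SOX17 summits at 3.2 and 20.1 kb upstream exceeded every other value at the locus. At 3.2 kb the 24 h SOX17 folds were 48.3 and 54.2, with pileups of 121 and 157, ranking 105 of 27328 and 125 of 41979 peaks of their lists by q-value. At 20.1 kb they were 37.6 and 39, with pileups of 130 and 160, ranking 121 and 177. The next SOX17 values were 22.7 at the distal enhancer in replicate 2 and 11 at 17.9 kb upstream in replicate 1 (10.3 there in replicate 2), and the other SOX17 summits were lower, apart from the 10.5 of replicate 1 at the distal enhancer. Both of these sites had SOX2 summits before induction. At 20.1 kb SOX2 had 6.97 and 9.17 at 0 h, 8.96 and 10.4 at 2 h, 13.5 and 6.48 at 4 h, and 6.24 and 6.23 at 8 h, so this was the only site of the 39 with a SOX2 summit in all 8 lists. At 3.2 kb SOX2 had 6.91 and 9.63 at 0 h, 4.59 in replicate 1 at 2 h, 9.89 and 7.45 at 4 h, and 7.53 and 7.94 at 8 h. In SOX2 2 h replicate 2, a peak (5.28) with its summit in a neighbouring site also covers the centre of the 3.2 kb site. SOX2 peaks thus covered that centre in both lists of every SOX2 time point. The SOX2 libraries were shallower than those of SOX17, and the difference between the 2 factors, which were mapped with different antibodies, was not tested.

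These were also the only sites with GATA6 at 48 h. At 20.1 kb GATA6 had 8.45 and 5.55 at 2 h, 10.2 in replicate 2 at 4 h, 6 in replicate 2 at 8 h, and 4.44 and 6.52 at 48 h. At 3.2 kb it had 8.77 in replicate 2 at 2 h, 10.1 and 9.59 at 4 h, 4.24 and 7.14 at 8 h, and 5.8 and 5.07 at 48 h. In GATA6 2 h replicate 1, a peak of 2472 bp that summits at 4.5 kb upstream covers the 3.2 kb site as well. The 48 h pileups were 12 and 21 at 20.1 kb and 11 and 12 at 3.2 kb, low counts in lists of 5933 and 9767 peaks. NANOG was listed at 20.1 kb in both 2 h lists (5.05 and 4.74) and at no other time, and at 3.2 kb only in replicate 2 of 0 h (5.49) and replicate 2 of 4 h (3.3). By the record these 48 h values would be the 4 h values.

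**Figure D3:**
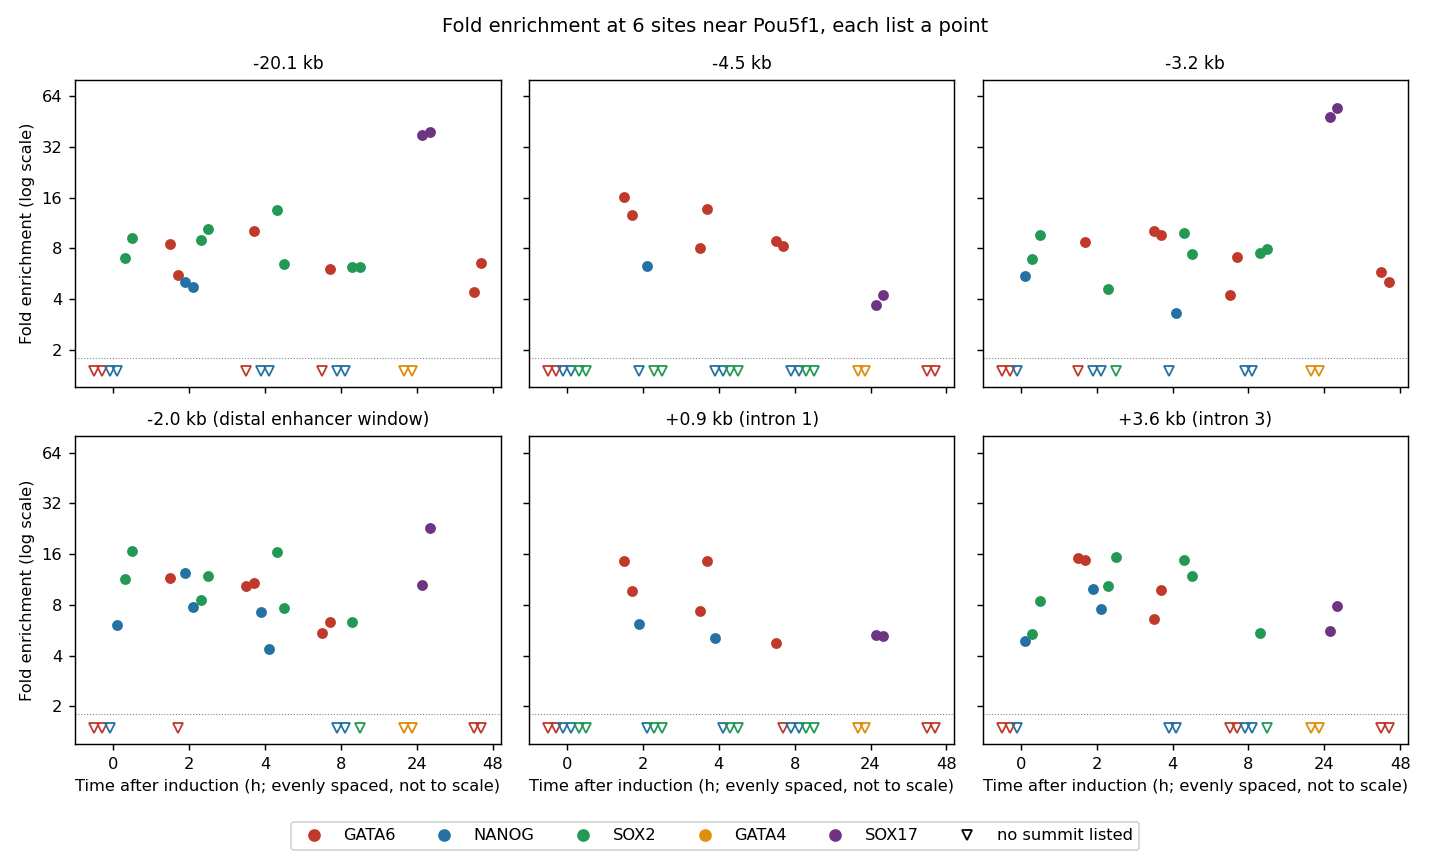
Fold enrichment (y axis, log scale) at 6 sites against time after induction (h, evenly spaced and not to scale), each filled circle a list, coloured by factor. Open triangles below the dotted line, placed off the scale, are lists with no summit at the site. The SOX17 points at 3.2 and 20.1 kb upstream lie between 37.6 and 54.2, above every other point.

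Other sites carried mainly GATA6. At 4.5 kb upstream, the site with 2 GATA matches, GATA6 had 16.1 and 12.6 at 2 h, 8.04 and 13.6 at 4 h and 8.85 and 8.31 at 8 h, with pileups of 40 and 28, 19 and 30, and 21 and 19. It was not listed there at 48 h, SOX2 had no summit there in any list, and NANOG had 1 (6.27, replicate 2 of 2 h). SOX17 was low, at 3.68 and 4.23. A site in intron 1, 0.9 kb downstream of the start, had GATA6 folds of 14.7 and 9.73 at 2 h, 7.4 and 14.5 at 4 h and 4.76 in replicate 1 at 8 h. SOX17 had 5.28 and 5.2 at this intronic site, NANOG 6.16 in replicate 1 of 2 h and 5.12 in replicate 1 of 4 h, and SOX2 no summit. A SOX2 peak of 2 h replicate 2 (4.46), with its summit in a neighbouring site, covers the centre of this site.

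A site in intron 3, 3.6 kb downstream (centre at 3568 bp, within the antisense gene Gm19553), carried the pluripotency factors and GATA6 together. GATA6 had 15.1 and 14.7 at 2 h and 6.61 and 9.75 at 4 h, and was not listed at 8 or 48 h. NANOG had 4.92 in replicate 2 of 0 h, 9.91 and 7.59 at 2 h, and no summit at 4 or 8 h. A NANOG peak of 4 h replicate 2 (4.64), with its summit in a neighbouring site, still covers the centre of the intron 3 site. SOX2 had 5.41 and 8.42 at 0 h, 10.3 and 15.4 at 2 h, 14.7 and 12 at 4 h, and 5.48 in replicate 1 at 8 h, so that the 2 and 4 h lists lay above both 0 h lists. SOX17 had 5.61 and 7.92.

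The remaining sites were weaker. At 18.6 kb upstream GATA6 had 6.78 and 9.99 at 2 h, 7.93 and 9.16 at 4 h, and 3.79 and 4.93 at 8 h, but this was the only one of the sites described singly whose sequence recurs elsewhere in the genome (at least 50 bases at 95% identity), so its reads may be placed with less certainty. At 11 kb downstream, next to the divergent starts of Tcf19 and Cchcr1, 11 lists had a summit with folds of 2.61 to 6.29, in both lists of SOX2 at 0 h and 4 h, SOX17, and GATA6 at 4 h. A site 37.5 kb downstream was held by SOX2 at 0 h (4.58 and 9.81) and 2 h (5.69 and 6.36) and by SOX17 (5.41 and 6.38). Of the 39 sites, 14 were held by a single list and 18 by both lists of some group, and 36 had no other place in the genome with such a match. The 2 GATA4 peaks, with folds of 4.54 at 7.9 kb downstream and 5.88 at 17.1 kb upstream, were each in 1 list only. No summit lay between 43.4 kb and the 50 kb limit downstream or beyond 20.1 kb upstream, and 2 peaks lay 50 to 55 kb away.

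**Figure D4:**
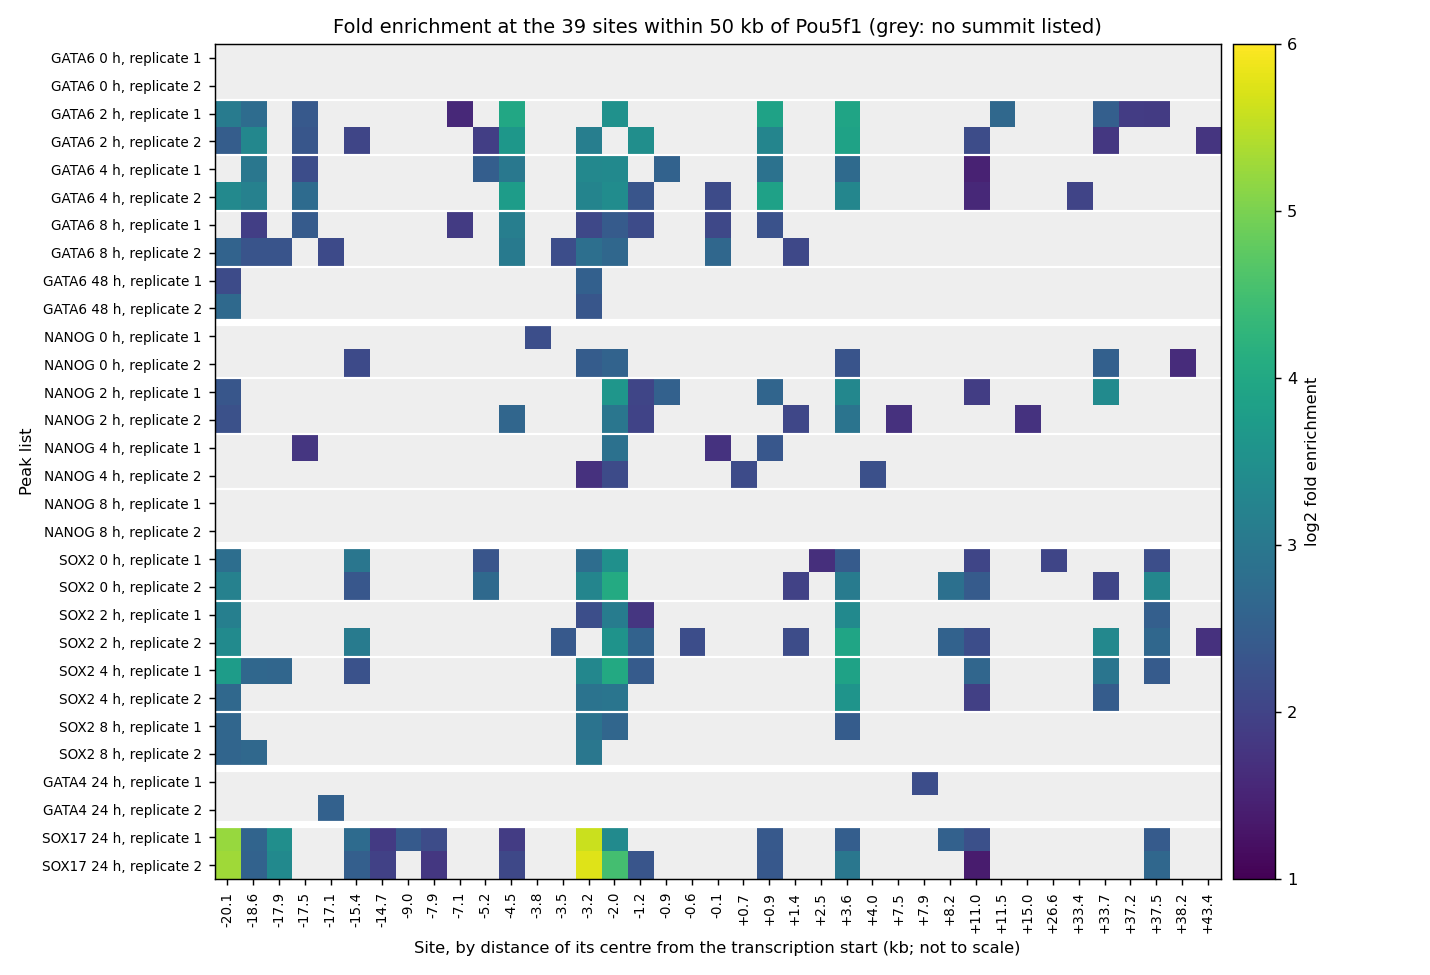
Fold enrichment (colour, log2 scale) of each of the 30 lists (y axis) at each of the 39 sites (x axis, ordered by distance from the start in kb, not to scale), with grey where the list has no summit. The distal enhancer column at 2.0 kb upstream has 19 filled cells, the most of any site, and the GATA6 0 h and NANOG 8 h rows are empty.

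Whether the fold of a site changed was tested by limma on log2 fold, each list centred on its median, for sites with a summit in all 4 lists of a pair of time points. None of the 14 differences at the locus passed at an adjusted p of 0.05 over all sites tested, and 2 had an unadjusted p under 0.05. Between 0 and 2 h, 4 locus sites could be tested for SOX2 and 0 were called, beside 11.4% of 7097 sites. The largest difference was that at 3.6 kb downstream, higher by 0.98 ± 0.34 (SE) on the log2 scale at 2 h (95% interval 0.28 to 1.68, limma adjusted p = 0.0604). This call was made under 3 alternatives, at limma adjusted p of 0.0491 after quantile normalization, 0.0462 with sites of 150 bp and 0.0375 with the replicate block. At the distal enhancer the SOX2 difference was -0.36 (95% interval -1.06 to 0.33). Between 0 and 8 h, 2 SOX2 sites could be tested and 0 were called, beside 21.0% of 2926 sites, with differences of 0.37 (-0.31 to 1.04) at 3.2 kb and 0.08 (-0.59 to 0.76) at 20.1 kb. For GATA6, 4 h against 2 h had 5 locus sites, 0 of them called, beside 2.84% of 23081 sites, the lowest value being -0.66 (-1.28 to -0.04, limma adjusted p = 0.213) at 3.6 kb downstream. GATA6 at 8 h against 2 h had 2 locus sites, 0 called, beside 30.8% of 14222 sites, with -0.23 (-0.82 to 0.35) at 4.5 kb and -0.43 (-1.09 to 0.23) at 18.6 kb. Without centring, the 18.6 kb value was called (-0.93, limma adjusted p = 0.0236), where the median of all sites fell by 0.49 between these times. With summits joined within 500 bp, 4 locus sites could be tested and 1, the intron 1 site at 0.9 kb downstream, was called (-0.92, limma adjusted p = 0.0238), beside 31% of 16421 sites. GATA6 at 48 h against 2 h had 1 locus site, at 20.1 kb, 0 called, beside 53.5% of 2173 sites, with 0.43 (-0.22 to 1.07). No locus site had a summit in all 4 NANOG lists of 0 and 2 h or of 0 and 4 h, so NANOG folds were not tested there.

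Losses and gains at the locus were counted beside the share over the genome. Of 8 locus sites in both SOX2 0 h lists, 4 were in neither 8 h list (15.4 and 5.2 kb upstream, 11 and 37.5 kb downstream), beside 62.7% of 15356 sites over the genome, and the 4 that were not lost were the distal enhancer, 3.2 and 20.1 kb upstream and 3.6 kb downstream. Of 7 sites in both GATA6 2 h lists, 2 were in neither 8 h list (3.6 and 33.7 kb downstream), beside 48.8% of 40630 sites, and 6 were in neither 48 h list, beside 89.8% of the same sites. By the record the last 2 counts are 1 and 2, beside 20.8% and 48.8%. Of 4 locus sites in both NANOG 2 h lists, 2 (20.1 and 1.2 kb upstream) were in neither 0 h list, beside 53.3% of 18099 sites, and the other 2, the distal enhancer and 3.6 kb downstream, were in replicate 2 of 0 h. No locus site was in both NANOG 0 h lists, so neither loss of NANOG from 0 h nor arrival of GATA6 at NANOG 0 h sites could be counted. The 7 sites that either NANOG 0 h list held were in neither NANOG 8 h list, beside 93.1% of 19795 such sites over the genome.

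SOX17 was listed at nearly all the sites that both SOX2 0 h lists had held. Of the 8 sites in both SOX2 0 h lists, 7 were also in both SOX17 24 h lists, all but the one at 5.2 kb upstream, beside 30.5% of SOX2 0 h sites over the genome. Of 7 sites in both GATA6 2 h lists, 5 were in both SOX17 lists, beside 20.7% over the genome, and of 4 in both NANOG 2 h lists, 2 were in both GATA6 2 h lists, beside 74.4%. The other 2, the distal enhancer and 1.2 kb upstream, each had a GATA6 2 h summit in 1 list, but peaks of both GATA6 2 h lists covered their centres. The last count, like its genome share, rests on summits and so does not show less GATA6 at these 2 sites. These 3 counts were chosen after the data had been seen, are small, and were not tested.

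The peak number of Pou5f1 within 50 kb was set beside that of 21924 protein-coding genes. The share of genes with as many or more was 10.6% and 4.22% for GATA6 at 2 h, 1.81% and 1.47% at 8 h, 0.972% and 0.374% for SOX2 at 0 h, and 0.338% and 1.71% for SOX17. It was 35% and 1.09% for NANOG at 0 h, 7.31% and 14.4% for GATA6 at 48 h and 39.3% and 22.1% for GATA4, and by definition all genes in the lists with none (GATA6 0 h and NANOG 8 h). For the highest fold within 5 kb of the start, 0.0365% and 0.0502% of genes were as high as Pou5f1 in the SOX17 lists, against 3.41% and 0.958% in the SOX2 0 h lists. The genes whose pattern over the 30 lists was most like that of Pou5f1 (Pearson's r of the log2 highest fold within 5 kb, with 1-fold where none was listed) were Sall4 (r = 0.98), a zinc-finger pluripotency factor, Trim25 (0.96), a ubiquitin ligase, Gna12 (0.94), a G-protein subunit, Hnrnpl (0.93), an RNA-binding protein, and Tspan14 (0.92), a tetraspanin. Over 16205 genes the median r was 0.35 and the 95th percentile 0.72, and all of these values share the lists' lengths, including lists that hold few peaks anywhere.

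Pou5f1 was compared with 15 other genes of the pluripotency network by a summit within 5 kb in both lists of a group. SOX2 held 12 of the 15 at 0 h (21% of all genes), 11 by 2 h (16.4%), 10 by 4 h (18%) and 6 by 8 h (8.71%), and NANOG held 10 (4.87%), 13 (17%), 6 (5.77%) and 0 (0.675%) at the same times. GATA6 held 0 at 0 h, 13 at 2 h (35.9%), 14 at 4 h (26.4%), 12 at 8 h (15.4%) and 1, Sall4, at 48 h (3.27%). SOX17 held 9 (24.8%) and GATA4 0 (3.4%). Pou5f1 had such a summit in both lists in 12 of the 15 groups, all but GATA6 at 0 h, NANOG at 8 h and GATA4 at 24 h. In the NANOG 0 h lists these summits lay at different sites, so they show no site held by both lists. At GATA6 48 h, Pou5f1 and Sall4 were therefore the only genes among these 16 with GATA6 in both lists. The longer list, replicate 2 (9767 peaks against 5933), also had summits at Klf4 (5.41), Zfp42 (5.73), Tbx3 (7.22), Nr5a2 (8.03) and Nr0b1 (4.29). By the record these lists would be those of 4 h.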

How the data were processed

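Processed CUT&RUN peak lists of 30 of the 57 samples were used, 2 per group, with groups and replicate numbers from the sample titles; histone, control and blastocyst samples were not analysed here. By the study's methods and the submitters' processing notes, reads were aligned with Bowtie2 to mm10 (GRCm38), filtered with SAMtools, handled with Picard with duplicates kept, and peaks were called per library with MACS against a rabbit anti-rabbit control library. The deposited fold enrichment is the authors' ratio of the summit pileup to local background, with the pseudocount named above added to each. The deposited −log10 p and −log10 q values come from the same caller. The deposited score repeats the −log10 q on a whole-number scale, by the authors' caller, and was not used.

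Summits of all lists were joined into sites of 501 bp, best −log10 q percentile first, and a list's value at a site is its highest fold. Pileups and local backgrounds were solved from fold and p, assuming the caller's Poisson formula, and were accepted where whole within 0.01%; 95% intervals are exact Poisson and cover counting error only. Peak numbers and shares were tested by two-sided exact permutation tests over all arrangements of lists among time points, adjusted by Benjamini and Hochberg over 3 factors. Folds were tested with limma 3.58.1 (R 4.3.3), adjusted over all sites of a contrast, and the script was tested on simulated data. Alternatives were filters on −log10 q or rank, other windows and site widths, other centring, a replicate block, and leaving out each list (in limma the lone list left at a time point is then assumed to vary like the other pair). Other places of a site's sequence were sought with blastn 2.17.0. Sites named singly were those in the 3 element windows (enhancers and promoter) and those in both lists of at least 3 groups, and a few others were named after their values were seen (those at 33.7, 17.9, 15.4 and 5.2 kb and the GATA4 peaks). The 5 genes most like Pou5f1 and the pluripotency list followed fixed rules. Members and lists were chosen with earlier results of these data known. Genes are GENCODE vM21, and coordinates are 1-based.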

Additional observations from a re-analysis of the deposited data

How the results depend on the processing

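All values here are adjusted p by the exact permutation test or counts of sites. The GATA6 peak number lost its call with the 10000 best peaks (0.0857), and the NANOG number gained one within 25 kb and 100 kb (0.0429 in both). The SOX2 share turned its direction at a −log10 q of at least 5 (0.552) and lost its call with the 10000 best peaks (0.571), within 25 kb (0.133) and within 100 kb (0.157). With the replicate block it had 0.125, where the fewer arrangements cannot give a call to 1 factor alone. With each list left out in turn, adjusted p ranged from 0.00952 to 0.0222 for the GATA6 number, 0.0143 to 0.238 for NANOG, and 0.133 to 0.59 for SOX2, and for the share from 0.0429 to 0.419 (GATA6), 0.0857 to 0.486 (NANOG) and 0.0286 to 0.295 (SOX2). The same labels on replicates of different groups are not stated to mark a shared batch, and the replicate block changed no other call than those named here.

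Where a peak interval covering the centre counted as holding a site, 7 of 11 SOX2 sites were lost by 8 h (64.7% over the genome), 9 of 21 GATA6 sites by 8 h (49.3%) and 19 of 21 by 48 h (91.1%). At a −log10 q of at least 5, 0 of 3 SOX2 sites were lost (67.9%). With 1 list enough at the first time point, the counts were 9 of 13 for SOX2 (80.2%), 9 of 18 and 16 of 18 for GATA6 (71.7% and 94.6%), and 9 of 12 for the NANOG gain (78.6%). By the recorded times the GATA6 losses were 1 and 2 of 7 (20.8% and 48.8%). In limma, 1 locus site was called for SOX2 2 h against 0 h under quantile normalization, 150 bp sites and the replicate block, and 1 for GATA6 8 h against 2 h without centring; 500 bp sites gave a further GATA6 call at 0.9 kb downstream, which could not be tested for that contrast at the main width. Of 131 repeats of the 14 site differences, 4 were called and 13, in 8 differences, had the other sign. The cause of these shifts was not tested. Depth limits all of these values: recovered pileups at the locus went down to 4 fragments, and those of GATA6 at 48 h were 11 to 21.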
